A study of Arabidopsis thaliana with 6 samples.

Results

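The genes described here encode the proteins of the cytosolic ribosome from RPL3 to RPL14 in the large subunit and from RPSa to RPS10, with RPS18, in the small subunit of Arabidopsis thaliana. They were taken from a list of 55 loci for 24 proteins, and a locus was used when its probe set was in the deposited table. This held for 44 of the 55 loci, 25 of the large subunit and 19 of the small subunit, out of 21428 probe sets in all, and they cover 22 of the 24 proteins. The other 11 loci, both listed RPL8 genes among them, were not analysed here. The gene table of RefSeq gives 19 of the 55 loci a symbol of their own and names 15 as ribosomal proteins. The remaining loci are assigned to a protein by the usual Arabidopsis nomenclature, which was not checked against a source.

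All plants were of accession Columbia-0 and were raised in vitro in long days (16 h light, 8 h dark) to an age of 8 days. AN3-GR plants carry AN3, a transcriptional coactivator of leaf cell proliferation, fused to the glucocorticoid receptor domain, which holds a fused protein inactive until a steroid is given. Wild type plants carry no fusion, and both genotypes were moved to 5 µM dexamethasone, such a steroid, for 8 h before leaves 1 and 2 were dissected, so that the controls received the steroid too. Each genotype was measured on 3 Affymetrix ATH1 arrays of biological repeats, 6 in all. Which promoter drives the fusion is not stated in the sources. AN3-GR plants without dexamethasone were not analysed here, and standing differences between the genotypes cannot be told apart from the response to the steroid.

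A ribosome is built of ribosomal RNAs and of proteins, most of them in a single copy, and translates messenger RNA. In Arabidopsis each protein is encoded by a small family of related genes, the paralogs, and loss of single paralogs often gives narrow or pointed leaves with fewer cells. Dividing cells need many new ribosomes, and ribosomal protein transcripts are abundant in young leaves. Values below are log2 expression values as the authors deposited them, made with RMA, which corrects the background and scales the arrays to each other. A change is the AN3-GR mean minus the wild type mean on that scale, with the standard error (SE) from limma. Adjusted p-values are those of limma after Benjamini-Hochberg adjustment over all 21428 probe sets, and a gene was called at a value under 0.05. In RNA of whole leaves, fewer cells of a type and less RNA per cell cannot be told apart.

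The AN3 transcript, the check of the labels, had a mean of 10.37 in AN3-GR and of 7.33 in wild type (change 3.05, SE 0.19, adjusted p = 0.000303 in limma). Array medians lay between 6.22 and 6.32 and lower quartiles between 3.99 and 4.21, so that the deposited arrays did not share one distribution. The photosynthesis markers, of which 3 of 6 were measured, had a median level of 12.47, and the shoot meristem markers one of 3.68. Over all probe sets, 120 were called higher and 49 (0.229%) lower in AN3-GR.

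All 44 ribosomal protein genes had a positive change, where 45.8% of all probe sets did. The changes were small, from 0.04 to 0.68 with a median of 0.21 on the log2 scale, against a median of −0.02 over all probe sets. In 29 of the 44 genes the lowest AN3-GR array exceeded the highest wild type array, which was so for 12.8% of all probe sets, and in the other 15 the groups overlapped. No member had all AN3-GR arrays below wild type, a pattern seen in 9.4% of all probe sets. A single member, the RPS9 gene AT5G39850 (probe set AT5G39850_at), passed the test as higher, against 0.56% of all probe sets. With the replicate number as a block, 9 members passed as higher, against 3.59% of all probe sets, and 0 as lower, against 3.03%. At an unadjusted p under 0.05, 18 members were higher, against 10.1% of all probe sets, and 0 were lower, against 7.86%. None of these shares is a test of the list.

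**Figure D1:**
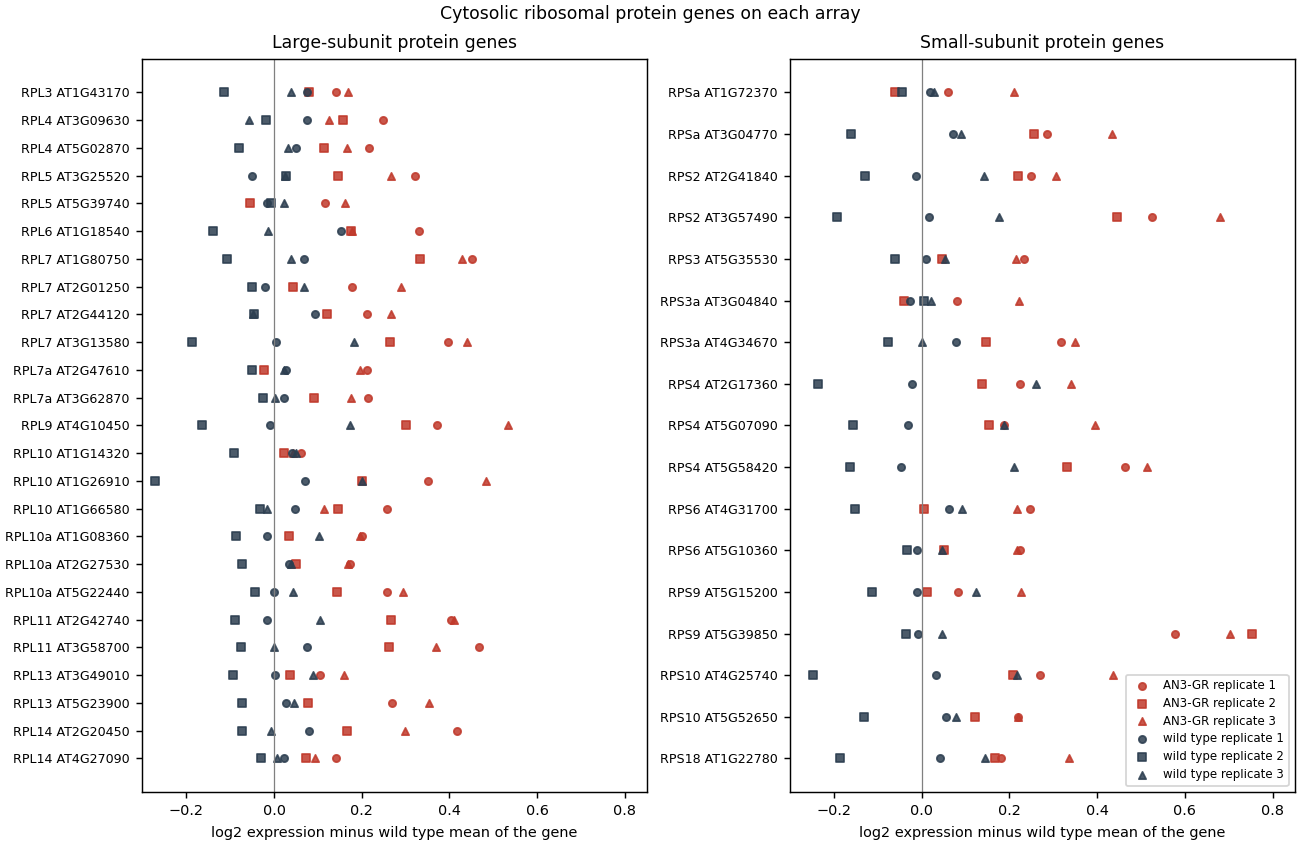
Log2 expression of the 42 genes described singly, on each of the 6 arrays, as the difference from the gene's wild type mean, with large-subunit genes on the left and small-subunit genes on the right. Red points are AN3-GR arrays and dark points wild type arrays, and the marker shape gives the replicate number. The red points lie to the right of all dark points in 27 of these genes, by the widest margin in the RPS9 gene AT5G39850.

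RPS9, a small-subunit protein known from bacteria and yeast for its part in the accuracy of translation, had the clearest difference between paralogs. AT5G39850 was at 7.73, 7.91 and 7.86 on the 3 AN3-GR arrays and at 7.14, 7.12 and 7.20 on the wild type arrays. The gap between the genotypes exceeded the spread within either, and the gene rose 1.6-fold (log2 change 0.68, SE 0.09, limma adjusted p = 0.0276, and 0.0188 with the replicate block). Its paralog AT5G15200 was at 13.52, 13.45 and 13.66 in AN3-GR and at 13.42, 13.32 and 13.56 in wild type, so that the groups overlapped (change 0.11, SE 0.10, limma adjusted p = 0.625). The call for AT5G39850 did not hold when single arrays were left out, except without wild type replicate 3 (limma adjusted p = 0.0207). It was highest without AN3-GR replicate 1 (0.156), then wild type replicate 2 (0.145), AN3-GR replicate 3 (0.0812), AN3-GR replicate 2 (0.0733) and wild type replicate 1 (0.0637). The change itself stayed between 0.64 and 0.73 in these 6 fits.

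RPS2, a protein near the messenger RNA entry of the small subunit, had the second largest change in its gene AT3G57490 (AT3G57490_at). This gene was at 10.42, 10.34 and 10.58 in AN3-GR and at 9.92, 9.71 and 10.08 in wild type, with no overlap. Its change of 0.55 (SE 0.12) did not pass in limma (adjusted p = 0.07) and did with the replicate block (0.0236). The paralog AT2G41840 was at 13.06, 13.03 and 13.11 against 12.80, 12.68 and 12.95, also without overlap, with a change of 0.26 (SE 0.10). The third listed gene, XW6, was not analysed here.

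RPS4 is encoded by 3 listed genes, all measured. AT5G58420 (AT5G58420_at) was at 11.85, 11.72 and 11.90 in AN3-GR and at 11.34, 11.23 and 11.60 in wild type, with no overlap (change 0.44, SE 0.12, limma adjusted p = 0.11, and 0.035 with the replicate block). AT5G07090 was at 12.00, 11.97 and 12.21 against 11.78, 11.66 and 12.00 (change 0.25, SE 0.12), and AT2G17360 at 11.13, 11.04 and 11.24 against 10.88, 10.67 and 11.16 (change 0.23, SE 0.13). In the last 2 genes wild type replicate 3 reached into the range of AN3-GR.

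RPSa, the laminin receptor homologue of the small subunit, had a weak and a strong probe set. The gene RPSAb was at 9.44, 9.41 and 9.59 in AN3-GR and 9.23, 9.00 and 9.25 in wild type (change 0.32, SE 0.11), without overlap. P40, the other RPSa gene, was at 13.26, 13.14 and 13.41 against 13.22, 13.16 and 13.23 (change 0.07, SE 0.10), and its groups overlapped. Without AN3-GR replicate 3 the change of P40 was 0.0004.

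RPS6, the small-subunit protein that S6 kinase phosphorylates downstream of TOR, had a change of 0.16 in both genes. RPS6, the gene AT4G31700, was at 12.88, 12.64 and 12.85 in AN3-GR and 12.70, 12.48 and 12.73 in wild type (change 0.16, SE 0.11). EMB3010, the other gene for this protein, was at 12.88, 12.71 and 12.87 against 12.64, 12.62 and 12.70 (change 0.16, SE 0.09). Neither passed the test, with limma adjusted p-values of 0.487 and 0.39. Without wild type replicate 2 the changes were 0.08 in RPS6 and 0.15 in EMB3010.

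PFL, the RPS18 gene whose loss gives pointed first leaves, was at 12.80, 12.78 and 12.95 in AN3-GR and 12.66, 12.43 and 12.76 in wild type. The groups did not overlap, and the change of 0.23 (SE 0.11) did not pass (limma adjusted p = 0.325). The RPS3 gene AT5G35530 had a change of 0.16 (SE 0.10), and the RPS10 genes AT4G25740 and AT5G52650 had 0.305 (SE 0.13) and 0.19 (SE 0.10). For RPS3a, AT4G34670 had a change of 0.27 (SE 0.10) and AT3G04840 one of 0.09 (SE 0.10). The groups overlapped in AT5G35530, AT4G25740 and AT3G04840 and not in AT5G52650 and AT4G34670. None of these genes passed the test.

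In the large subunit 0 genes passed without the block, 10 of the 25 had an unadjusted p under 0.05 as higher in limma (10.1% of all probe sets), and 5 passed as higher with the block (3.59%). These 5 were the RPL7 genes AT1G80750 and AT3G13580, the RPL9 gene AT4G10450 and both listed RPL11 genes. The median change was 0.18 over the 25 large-subunit genes and 0.23 over the 19 small-subunit genes, and the difference was not tested.

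RPL7, a large-subunit protein that binds ribosomal RNA, has the most genes here, 4. AT1G80750 was at 10.29, 10.17 and 10.27 in AN3-GR and at 9.91, 9.73 and 9.88 in wild type (change 0.40, SE 0.09, limma adjusted p = 0.0785, and 0.034 with the block). AT3G13580 was at 10.79, 10.66 and 10.84 against 10.40, 10.21 and 10.58 (change 0.37, SE 0.12, limma adjusted p = 0.15, and 0.0483 with the block). In both genes the groups did not overlap. The strongly detected AT2G44120 and AT2G01250 had changes of 0.20 (SE 0.09) and 0.17 (SE 0.10), and in AT2G01250 AN3-GR replicate 2, at 12.89, lay below wild type replicate 3, at 12.92.

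RPL5 and RPL11 bind the 5S ribosomal RNA and enter the ribosome with it. The listed RPL11 genes had like changes. RPL16A, the RefSeq symbol of the RPL11 gene AT2G42740, was at 11.30, 11.16 and 11.31 in AN3-GR and at 10.88, 10.81 and 11.00 in wild type (change 0.36, SE 0.10, limma adjusted p = 0.111, and 0.0446 with the block). AT3G58700 was at 11.96, 11.76 and 11.86 against 11.57, 11.42 and 11.49 (change 0.37, SE 0.10, limma adjusted p = 0.108, and 0.0411 with the block). Every AN3-GR array was above every wild type array in both.

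The RPL5 genes had less like changes. ATL5, also named OLIGOCELLULA 5 and PIGGYBACK3 after mutants with fewer leaf cells and altered leaf polarity, was at 12.64, 12.47 and 12.59 in AN3-GR and at 12.27, 12.35 and 12.35 in wild type. Its groups did not overlap (change 0.24, SE 0.09, limma adjusted p = 0.214). RPL5B, also named OLIGOCELLULA 7, was at 12.44, 12.27 and 12.49 against 12.31, 12.32 and 12.35, and AN3-GR replicate 2 was the lowest of the 6 arrays (change 0.07, SE 0.10).

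RPL9 was represented by AT4G10450, at 11.84, 11.77 and 12.01 in AN3-GR and 11.46, 11.31 and 11.64 in wild type. The groups did not overlap (change 0.40, SE 0.12, limma adjusted p = 0.129, and 0.035 with the block). The other listed RPL9 genes, PGY2 among them, were not analysed here.

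RPL10, known from yeast to join the large subunit late in its assembly, had the smallest change of all members in its gene SAC52, whose mutation suppresses the dwarf phenotype of acaulis5. SAC52 was at 13.61, 13.58 and 13.60 in AN3-GR and at 13.59, 13.46 and 13.60 in wild type, a change of 0.04 (SE 0.09) that was −0.0038 without wild type replicate 2. RPL10B was at 10.39, 10.24 and 10.52 against 10.11, 9.76 and 10.24 (change 0.34, SE 0.14, and 0.21 without wild type replicate 2), and wild type replicate 3 matched AN3-GR replicate 2 within 0.01. SAG24, named as a senescence-associated gene, was at 12.65, 12.54 and 12.51 against 12.44, 12.36 and 12.38, with no overlap (change 0.17, SE 0.09).

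RPL10a is encoded by PGY1, whose mutants enhance the leaf polarity defect of asymmetric leaves1, and by AT1G08360 and AT5G22440. PGY1 was at 12.71, 12.59 and 12.71 in AN3-GR and at 12.58, 12.47 and 12.58 in wild type (change 0.13, SE 0.09). AT1G08360 had a change of 0.14 (SE 0.10) and AT5G22440 one of 0.23 (SE 0.09). The groups overlapped in AT1G08360 and not in the other 2 genes, and 0 of the 3 passed.

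The remaining large-subunit genes were all strongly detected and did not pass. RPL4, whose loop lines the exit tunnel for the nascent chain, had changes of 0.18 (SE 0.09) in AT3G09630 and 0.17 (SE 0.09) in AT5G02870, with no overlap in either. RP1, the listed RPL3 gene, encodes a protein close to the peptidyl transferase centre and had a change of 0.13 (SE 0.09). The RPL6 gene AT1G18540 had 0.23 (SE 0.11), and the RPL7a genes AT3G62870 and AT2G47610 had 0.16 (SE 0.09) and 0.13 (SE 0.10). For RPL13, AT5G23900 had 0.23 (SE 0.10) and BBC1 had 0.10 (SE 0.09). For RPL14, AT2G20450 had 0.29 (SE 0.10) and AT4G27090 had 0.10 (SE 0.09). Among these remaining genes the groups overlapped in AT2G47610 and BBC1 only.

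**Figure D2:**
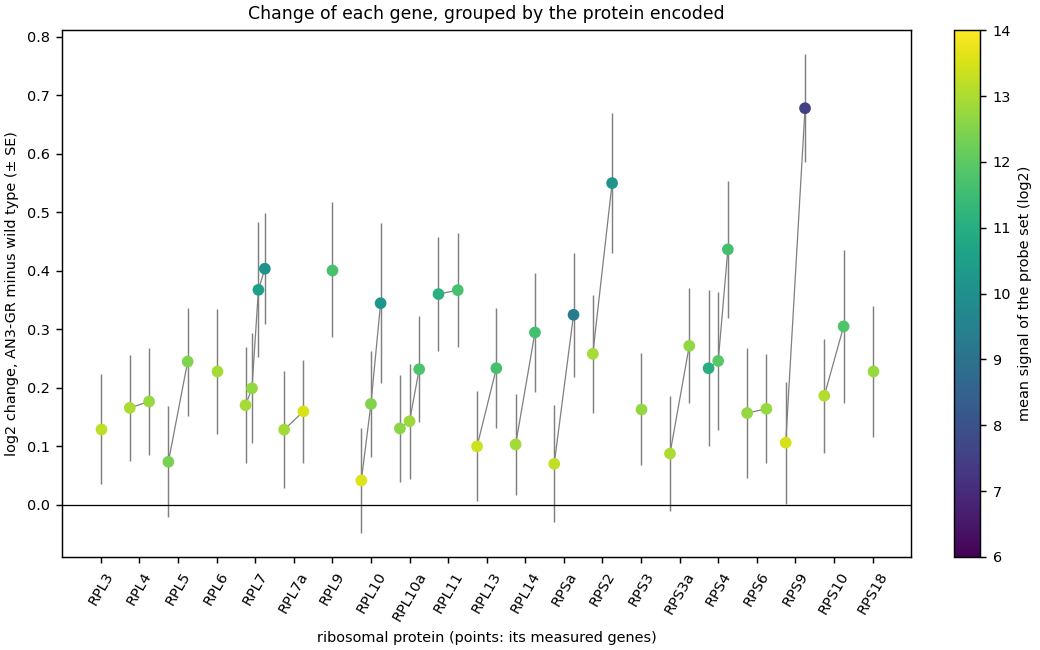
Log2 change of the 42 genes described singly between AN3-GR and wild type (points) with its SE (bars), grouped by the protein it encodes. Colour gives the mean signal of the probe set over the 6 arrays, from weak (dark) to strong (yellow). All points lie above 0, and in RPS9, RPL10, RPS2 and RPSa the darker point lies well above the yellow one.

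Paralogs of one protein were compared through the difference between their 2 probe sets on each array. The size of that difference depends on the probes and says nothing of transcript levels. Its shift between genotypes gives the difference between the paralogs' changes of signal. Whether both probe sets respond alike, and to their own gene alone, was not tested. There were 28 pairs in 17 proteins. An exact permutation test of 3 arrays against 3 cannot go below p = 0.1, two-sided, so that no pair could pass 0.05. The differences on the 3 AN3-GR arrays did not overlap those on the wild type arrays in 17 of the 28 pairs, each with that smallest p. The share among pairs of other probe sets with like signals was not computed, so this count is not a result about paralogs. Pairs of a protein with more than 2 measured genes also share genes. The widest pair was RPS9, where AT5G39850 minus AT5G15200 was −5.78, −5.54 and −5.80 in AN3-GR and −6.28, −6.20 and −6.36 in wild type. This is a shift of 0.57 (SE 0.10) between the genotypes. In RPL10, RPL10B against SAC52 gave a shift of 0.30 (SE 0.12), with −3.23, −3.34 and −3.08 against −3.49, −3.70 and −3.37, and one of 0.21 without wild type replicate 2.

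RPS2 had a shift of 0.29 (SE 0.05), RPSa one of 0.25 (SE 0.065) and AT1G80750 against AT2G01250 of RPL7 one of 0.23 (SE 0.07). The RPL5 genes, whose probe sets had nearly equal signals of 12.44 and 12.37, differed by 0.17 (SE 0.04). Here ATL5 minus RPL5B was 0.20, 0.20 and 0.10 in AN3-GR and −0.04, 0.03 and −0.01 in wild type, with no overlap. The exact p of 0.1 is the smallest for this pair too. Among the smallest shifts were those of the RPL11, RPS6 and RPL4 pairs, at 0.01 each, and their arrays overlapped.

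The paralog with the weaker signal had the larger change in 21 of the 28 pairs. This was so in all 15 pairs whose mean signals lay at least 1 apart on the log2 scale, and 12 of these 15 did not overlap. Several of these pairs, as in RPL7 and RPL10, share genes, so they are not separate cases. Across the 44 genes, Pearson's r of the change with the mean signal was −0.82 and Spearman's rho −0.83. These are descriptions across genes that share arrays and, within a protein, can share much of their sequence. In the 9 members with a mean signal of 13 or above the median change was 0.10, in the 18 from 12 to 13 it was 0.17, in the 10 from 11 to 12 it was 0.30, and in the 4 from 10 to 11 it was 0.39. Below 10, RPSAb had 0.32 and AT5G39850 had 0.68.

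Over the 124 other cytosolic ribosomal protein genes that were measured, Pearson's r was 0.07 and Spearman's rho −0.41, again as descriptions across genes. These coefficients cover a wider range of signal than those of the members, as the 124 genes reach down to 3.02, below every member. Their median change was 0.12 in the 27 genes with a signal of 13 or above, 0.17 in the 58 from 12 to 13, 0.25 in the 12 from 11 to 12, 0.33 in the 6 from 10 to 11 and 0.37 in the 11 from 8 to 10. The 10 of these genes below 8 had a median change of −0.0039 and a range from −0.09 to 0.20.

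Strong signals of an array can approach an upper limit, where a change of a given fold gives a smaller change of signal. The part of this in the pattern was not tested. Probe sets outside the cytosolic ribosome had lower median changes than the members at the same signals. The medians of these probe sets also fell as the signal rose. Of these, 161 with a mean signal from 12 to 13 had a median change of −0.06, with the middle of the distribution between −0.17 and 0.04, and 44 with 13 or above had a median of −0.11. From 10 to 11, the 800 such probe sets had a median of 0.02, between −0.11 and 0.17. Their medians were 0.05 from 6 to 8, 0.04 from 8 to 10 and −0.01 from 11 to 12.

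**Figure D3:**
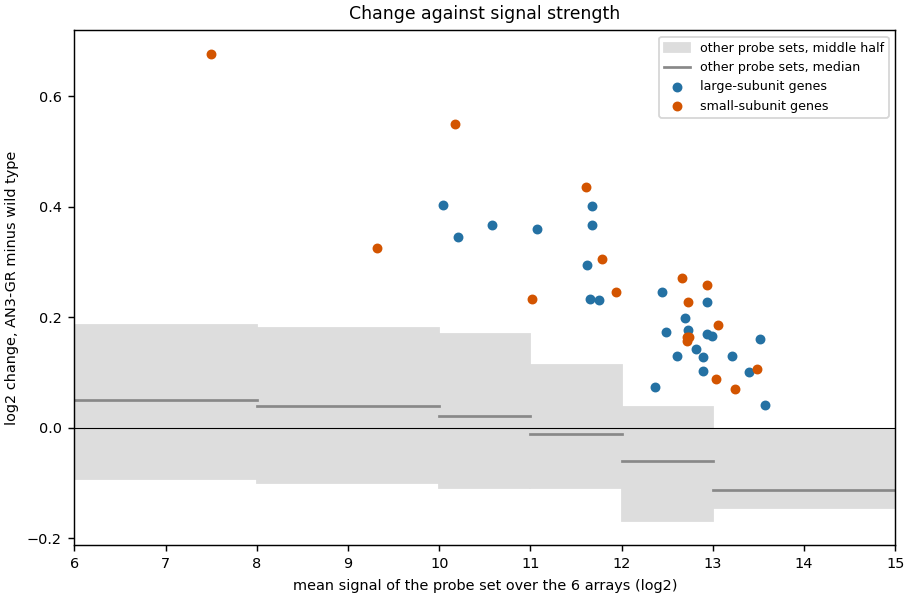
Log2 change against the mean signal of the probe set over the 6 arrays (log2), for the large-subunit genes (blue) and small-subunit genes (orange) described singly. Grey boxes span the quartiles of the change among all probe sets outside the cytosolic ribosomal protein lists in each range of signal, and grey lines their median. The points run from 0.68 at a signal of 7.49 to 0.04 at 13.57, and all lie above the grey medians.

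The members also varied together between arrays of one genotype. On replicate 2, 41 of the 44 members lay below their genotype's mean in AN3-GR and 41 of 44 in wild type, with median deviations of −0.09 and −0.08. On replicate 3, 39 and 36 of the 44 lay above it, with medians of 0.06 and 0.05. Within replicate numbers the difference between the genotypes kept its direction. AN3-GR was higher than wild type in all 44 members for number 1 (median 0.21), in 41 for number 2 (0.19) and in 43 for number 3 (0.19), where 48.0%, 45.2% and 54.6% of all probe sets were higher. The median over the members was 0.198 without both arrays of number 2, with all 44 positive.

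Single arrays moved the change of 15 of the 42 genes described singly by over 1.5 times, none of them called with or without the block. Wild type replicate 2 did so in 10 genes. Without it the change was 0.07 in RP1, 0.05 in BBC1, 0.11 in AT2G17360, 0.05 in AT5G15200, 0.18 in AT4G25740, 0.12 in AT5G52650 and 0.135 in PFL, beside SAC52, RPL10B and RPS6 given above. Without AN3-GR replicate 3 it was 0.03 in RPL5B, 0.11 in AT2G01250, 0.02 in AT3G04840 and 0.05 in AT5G15200, beside P40. Without AN3-GR replicate 2 it was 0.14 in RPL5B, 0.20 in AT2G47610, 0.15 in AT3G04840 and 0.14 in P40. Without wild type replicate 3 it was 0.07 in SAC52, 0.36 in AT2G17360 and 0.17 in AT5G15200.

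The other cytosolic ribosomal protein genes, which complete the ribosome, were close in value. Of 152 listed 124 were measured, 118 had a positive change, and the median was 0.17. In 59 all AN3-GR arrays lay above all wild type arrays, which was so for 12.8% of all probe sets. In limma 0 passed in either direction, and 8 passed as higher with the replicate block, against 3.59% of all probe sets. At an unadjusted p under 0.05, 38 were higher and 0 lower, against 10.1% and 7.86% of all probe sets. The largest changes were those of the RPS30 gene AT2G19750 at 0.49 (SE 0.11) and the RPS27a gene AT1G23410 at 0.46 (SE 0.12), with limma adjusted p-values of 0.07 and 0.0993. Both are among the 8 that passed with the block, at 0.0411 and 0.0286 in limma. The low arrays were again those of replicate 2, with 112 of the 124 below the genotype's mean in AN3-GR and 107 in wild type.

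Ribosomal proteins of the plastid, made from nuclear genes with signals as strong as those of the members, had mostly negative changes. Of 33 listed 31 were measured, and 29 had a negative change, with a median of −0.06 and a range from −0.15 to 0.03. Probe sets outside the cytosolic ribosome, these plastid genes among them, had negative median changes at such signals too. These medians were −0.01 from 11 to 12, −0.06 from 12 to 13 and −0.11 at 13 or above. From 12 to 13, 32.3% of these probe sets had a positive change. Whether the plastid genes differed from other probe sets of like signal was not tested. The groups of the plastid genes overlapped in 24 and lay wholly lower in AN3-GR in 7, a pattern seen in 9.4% of all probe sets. In limma 0 passed, also with the replicate block, and 0 had an unadjusted p under 0.05. The plastid gene AT1G74970 had the largest at −0.15 (SE 0.09). Its RefSeq symbol is RPS9, and it was not compared with the cytosolic RPS9 genes. Cytosolic elongation factors, of which 3 of 12 were measured, had changes from 0.08 to 0.32, such as LOS1, elongation factor 2, at 0.15 (SE 0.09). In limma 0 of these passed, and 1 had an unadjusted p under 0.05 as higher (10.1% of all probe sets).

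**Figure D4:**
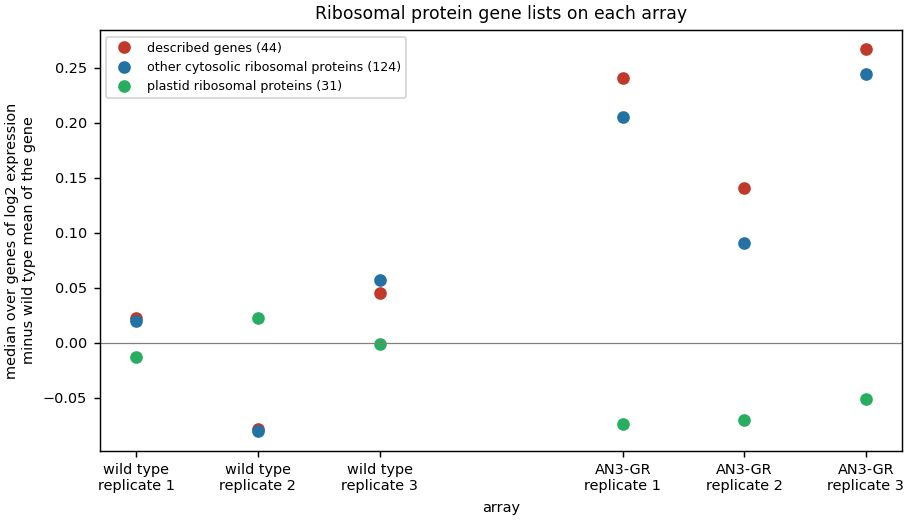
Median over the genes of a list of the log2 expression minus the gene's wild type mean, on each array, for the 44 described genes (red), 124 other cytosolic ribosomal protein genes (blue) and 31 plastid ribosomal protein genes (green). The red and blue points are lowest on replicate 2 in each genotype, and on every AN3-GR array the red point, at 0.14 to 0.27, lies above those of all wild type arrays. The green points of AN3-GR lie between −0.07 and −0.05.

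Other lists are given by their counts and summed signals, and their part in the result was not tested. Of 8 cell division markers 7 were measured and all were positive (median 0.25), with 0 past the threshold in limma. As higher, 3 had an unadjusted p under 0.05 in limma (10.1% of all probe sets) and 3 passed with the replicate block (3.59%). The summed signal of all 7 was 4670 to 5410 in AN3-GR and 3970 to 4540 in wild type. All 7 genes of touch and early stress, which handling can induce, were negative (median −0.56), and ERF11 passed as lower (limma adjusted p = 0.0407). With the block 5 of them passed as lower (3.03% of all probe sets). At an unadjusted p under 0.05 in limma, 6 were lower (7.86%). In 3 of the 7, all AN3-GR arrays lay below all wild type arrays (9.4%). The summed signal of the 7 genes was 2790 to 4700 in AN3-GR and 3850 to 6080 in wild type. The 3 photosynthesis markers had a median change of −0.09, and their summed signals overlapped, at 13800 to 18600 and 14700 to 18300. The 6 stomatal lineage markers (median −0.07, summed signal 1500 to 1680 and 1600 to 1680), the 5 vascular markers (0.02, 441 to 512 and 460 to 495), the 4 measured of 5 trichome markers (0.24, 275.0 to 314 and 201 to 302) and the 6 shoot meristem markers (−0.05, 75.9 to 80.9 and 74.0 to 89.8) had 0 called in limma. At an unadjusted p under 0.05 there was 1 vascular marker as higher (10.1% of all probe sets) and 1 meristem marker as lower (7.86%).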

How the data were processed

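Total RNA of leaves 1 and 2 was measured on 6 arrays, 3 per genotype. The deposited values are log2 expression values, and per the submitters' processing notes the authors used RMA and limma, without versions. Per the file headers, each probe set is named by 1 gene locus, which points to a gene-centred probe grouping. There were 0 unused sample columns, and 0 members had values identical to those of another probe set. Values were used as deposited and compared with limma 3.58.1 in R 4.3.3 (lmFit and eBayes, all 6 arrays, no covariate, two-sided), which was tested on simulated data. Paralog contrasts used Python 3.11.15 and scipy 1.17.1. The number of arrays limits the precision of every value.

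The members and lists were chosen with earlier results of these data known. Gene lists other than the members were written from memory and not checked against a source. Named with values were members that passed with or without the block, the 6 largest changes, members known from leaf mutants or signalling, all paralogs of proteins with 3 or more listed genes, and the 3 widest pairs. The remaining members were named after their values were seen. Of the other lists, members that passed were named, or else up to 2 with the largest change. Promoter and protein sequences were not used here. A few members that these rules name count in the totals and pairs but are not reported singly here, in the text or the figures.

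The labels number the repeats in both genotypes without naming a shared day. Deviations from the genotype means correlated between arrays of the same number at 0.161, 0.416 and 0.494 over all probe sets, each above 0.1, so the fit with the number as a block is given where it changes a call.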

Additional observations from a re-analysis of the deposited data

How the results depend on the processing

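The positive change of the members was 44 of 44 under every alternative except without wild type replicate 2, where it was 43. Their median stayed between 0.158 (without wild type replicate 2) and 0.247 (without AN3-GR replicate 2). Of 465 values of 31 members under alternatives, 464 were positive, and the exception was SAC52, whose change was −0.0038 to 0.0671 without single arrays. The replicate block, the intensity trend with robust prior and the removal of weak probe sets leave each change as it was. Their values count in these totals but could not differ in sign. The number of members called as higher was 9 with the replicate block or array weights, 6 with an intensity trend and robust prior, 0 with Benjamini-Yekutieli adjustment, 0 without both arrays of number 1, 2 or 3, and 0 to 3 without single arrays. It stayed at 1, AT5G39850, after another quantile normalization, median centring or removal of the weakest 25% of probe sets. Leaving out both arrays of a number was chosen after seeing the data. Over all probe sets, 169 were called. The count was 1420 with the replicate block, 1132 with array weights, 558 with the trend and robust prior, 8 with Benjamini-Yekutieli adjustment, 4, 6 and 74 without both arrays of number 1, 2 and 3, and 9 to 779 without single arrays. The fewer arrays of these fits lower the residual degrees of freedom, and for the rest the cause was not tested. Higher calls were 71.0% of calls, 49.6% after median centring, 58.1% after another quantile normalization, 54.2% with the block, 60.1% without wild type replicate 3 and 42.9% without AN3-GR replicate 2. The plastid list's median was −0.0948 after median centring. Pairs of paralogs that did not overlap numbered 15 after another quantile normalization, against 17. They numbered 17 after median centring and 17 to 20 without single arrays. Neither of these could lower the count, as centring cancels within an array and fewer arrays cannot create an overlap. The deposited values hold no background measure, so how far signals under 8 stand above it is unknown here.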
